A study of Mus musculus with 2 samples.

Results

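The genes described here carry glucose into the cell, break it down to pyruvate and lactate, decide whether pyruvate enters the mitochondrion, and store or release glucose as glycogen. They form a list of 35 genes grouped by function and were followed in whole lungs of TAZ-deficient mouse embryos and of wild type littermates at E15.5. A gene was represented by probe sets (groups of short oligonucleotides on the array) that the platform annotation assigns to that gene alone, which held for 33 of the 35 genes, out of 18194 such genes on the array. Wwtr1 encodes TAZ, a coactivator of transcription that Hippo kinases restrain. Total RNA from 4 lung samples was pooled for each group, and each pool was hybridised to 1 array, so that the comparison rests on 2 arrays. The sources used here do not give how TAZ was removed, from which cells, or where the array's Wwtr1 probes lie relative to the removed part. No difference below has a replicate check, a standard deviation or a p-value, and embryos within a pool cannot be told apart. In whole lung, more cells of a type and more RNA per cell cannot be told apart either.

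Glycolysis converts glucose to pyruvate in a chain of cytosolic enzymes, and lactate dehydrogenase then reduces pyruvate to lactate, which leaves the cell through monocarboxylate transporters. Hexokinase and phosphofructokinase are the main control steps, and pyruvate dehydrogenase kinases hold pyruvate back from mitochondrial oxidation. Many of these genes are textbook targets of the hypoxia-inducible factors, which bind a short core motif in DNA. In the fetal lung, distal epithelial cells build up glycogen before birth and draw on it for surfactant phospholipid synthesis.

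Signals are on a linear scale, with the same trimmed mean on both arrays, and ran up to 5541.4 units on the TAZ-deficient array and 5348.1 on the wild type array. A floor was set at 15.2 units, the median of all non-control values, and a gene was called measured when its brightest probe set was above the floor on either array. Wwtr1 read 11.3 units in TAZ-deficient lung and 791.2 in wild type lung at its brightest probe set, at least 52.1-fold lower. Its other probe sets read 6.4 and 3.9 in TAZ-deficient lung, against 222.9 and 176.9 in wild type lung, so the arrays follow their labels. Of 12041 measured genes, 32 were members, and all 32 were above the floor on both arrays. Eno2, the neuronal enolase, was below the floor on both arrays (5.4 units in TAZ-deficient and 5.6 in wild type lung). No probe set was assigned to Gpi1 (glucose phosphate isomerase) or Eno1 (the widely expressed enolase) alone, and these genes were not analysed here.

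Signals of glycolytic genes were higher in TAZ-deficient lung along most of the pathway. The members and thresholds were chosen with earlier results of these data known. Of the 32 measured members, 26 (81.2%) had a log2 ratio above 0 (TAZ-deficient over wild type in all that follows), against 46.7% of all measured genes. A size of at least 1.2-fold was reached upwards by 12 members (37.5%), against 8.02% of all measured genes, and downwards by 2 members (6.25%), against 10.6%. At least 1.5-fold was reached upwards by 2 members (6.25%), against 1.27%, and downwards by 0, against 1.48%. The median log2 ratio of the members was 0.20, with a middle range from 0.06 to 0.32, while that of all measured genes was -0.01, with a middle range from -0.13 to 0.10. Since dim genes scatter more, the same counts were made over genes above 106.3 units (the 75th percentile of all values) on both arrays. There 9 of 21 members (42.9%) were at least 1.2-fold higher, against 3.12% of all such genes, and 1 member (4.76%) was at least 1.2-fold lower, against 3.98%.

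**Figure D1:**
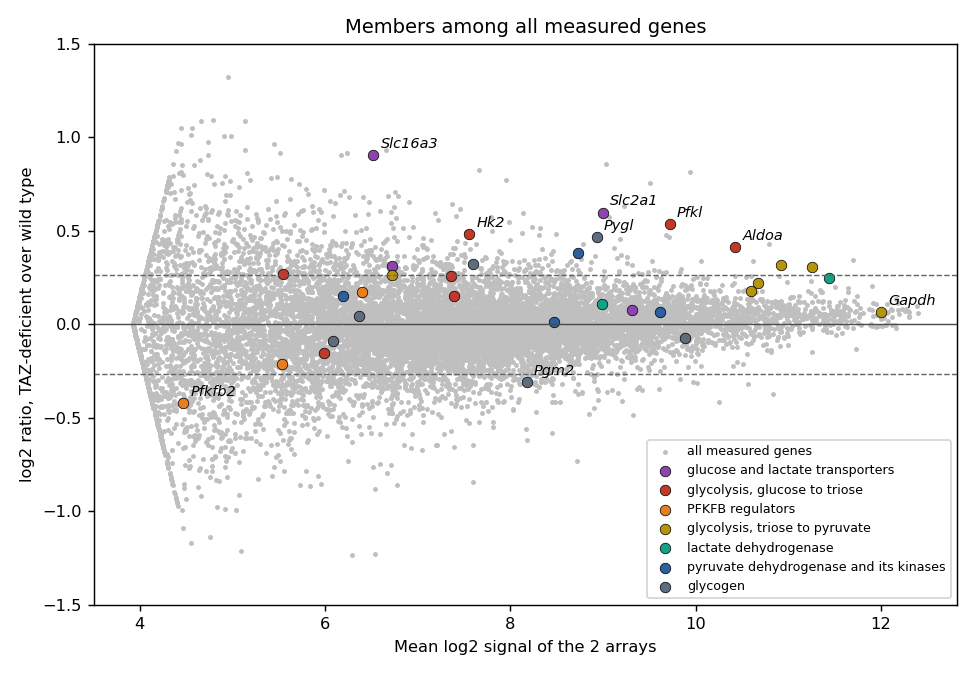
The log2 ratio, TAZ-deficient over wild type (vertical axis), is plotted against the mean log2 signal of both arrays (horizontal axis) for all measured genes in grey and for 32 members, coloured by role; dashed lines mark 1.2-fold and 8 genes lie outside the plotted range. Most members lie above 0, but at the left end Pfkfb2, Pfkfb4, Pfkp and Gbe1 lie below it and Aldoc above it. Gapdh lies at the far right near 0, at 0.06.

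In place of replicates, probe sets of a gene were set against each other. Between the brightest probe set and the next, both above the floor, log2 ratios had a standard deviation of 0.20 per probe set over 5639 genes. This was 0.12 where both exceeded 106.3 units (2331 genes) and 0.24 for the other 3308. For the 16 members with 2 such probe sets it was 0.14. This spread contains no variation between embryos, pools or arrays. Of these 16 members, 13 had only positive ratios, 1 had only negative ratios (Pfkfb2) and 2 had ratios of both signs (Pfkp and Ugp2). How often such sign patterns occur over all genes was not computed, and all probe sets of a gene read the same 2 pools. Over all 62 member probe sets above the floor, 53 ratios were above 0 and the median was 0.22. Over all 21307 probe sets above the floor that name 1 gene, 10038 ratios were above 0 and the median was -0.01.

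**Figure D2:**
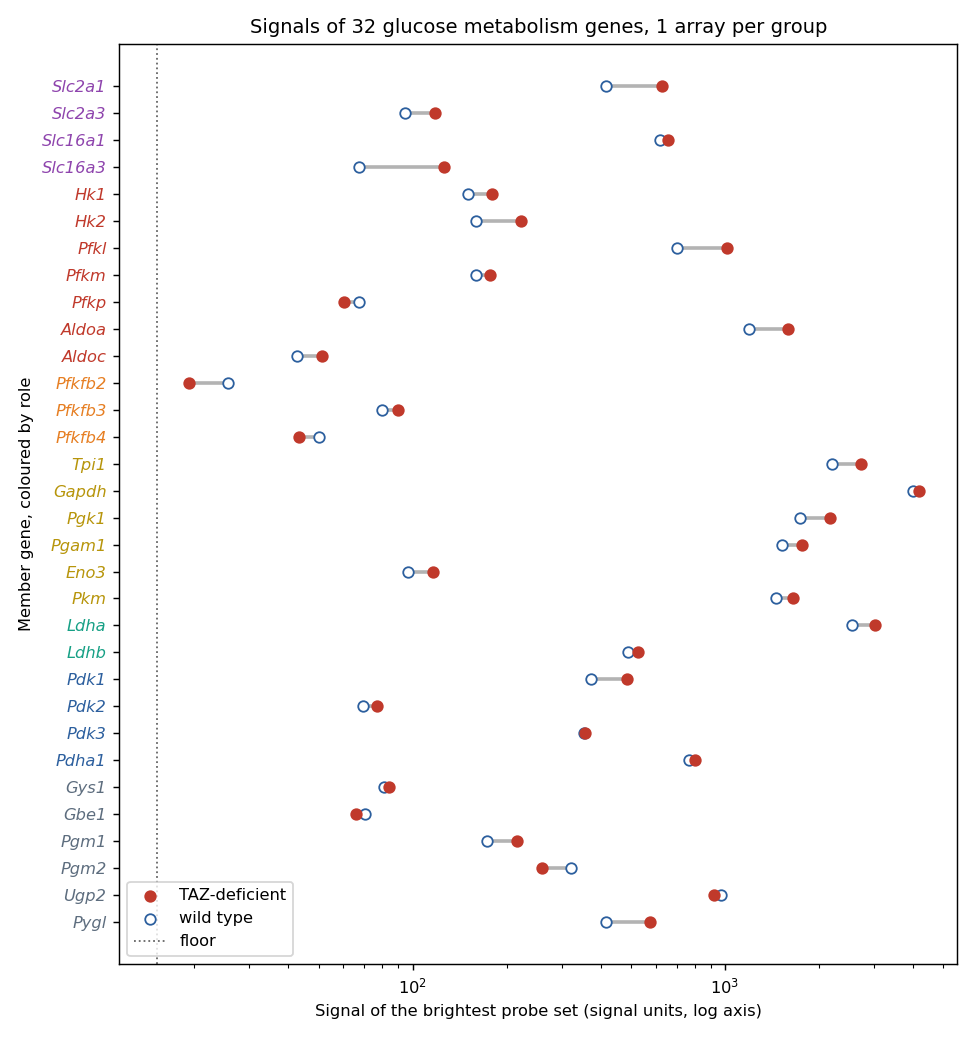
The signal of the brightest probe set (horizontal log axis, signal units) is shown for each of 32 measured members, with filled red points for the TAZ-deficient array and open blue points for the wild type array. The red point lies to the right of the blue one for 26 members, with the widest gap at Slc16a3 (125.8 units in TAZ-deficient and 67.1 in wild type lung).

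The promoters of the 5 members with the highest ratios, and of Pgm2, which was at least 1.2-fold lower and above 106.3 units on both arrays, are printed here because most members had ratios of one sign and the hypoxia motif was searched in all of them. Sequences are from RefSeq, build GRCm38.p6, and run 5′ to 3′ on the strand of the gene from 250 bases before to 50 bases after the annotated start. Capitals mark the core of the hypoxia response element, searched as ACGTG and GCGTG on both strands.
Slc16a3, chr11:120948817-120949116, plus strand: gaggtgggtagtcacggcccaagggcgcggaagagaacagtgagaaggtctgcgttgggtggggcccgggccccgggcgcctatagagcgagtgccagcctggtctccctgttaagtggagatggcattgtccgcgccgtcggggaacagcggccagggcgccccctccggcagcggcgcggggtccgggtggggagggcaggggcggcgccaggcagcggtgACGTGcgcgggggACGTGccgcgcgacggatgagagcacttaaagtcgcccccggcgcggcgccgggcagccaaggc
Slc2a1, chr4:119108495-119108794, plus strand: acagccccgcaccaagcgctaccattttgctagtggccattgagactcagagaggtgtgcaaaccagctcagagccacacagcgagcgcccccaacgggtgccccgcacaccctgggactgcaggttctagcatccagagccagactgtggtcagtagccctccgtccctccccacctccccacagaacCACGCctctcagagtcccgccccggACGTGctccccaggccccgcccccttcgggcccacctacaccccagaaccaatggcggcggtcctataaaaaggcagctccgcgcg
Pfkl, chr10:78009758-78010057, minus strand: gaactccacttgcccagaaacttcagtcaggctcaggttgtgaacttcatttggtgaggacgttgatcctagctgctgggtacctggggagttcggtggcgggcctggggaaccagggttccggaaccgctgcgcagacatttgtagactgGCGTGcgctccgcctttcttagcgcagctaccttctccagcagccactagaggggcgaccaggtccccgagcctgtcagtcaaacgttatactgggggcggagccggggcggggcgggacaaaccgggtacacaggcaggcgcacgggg
Hk2, chr6:82774405-82774704, minus strand: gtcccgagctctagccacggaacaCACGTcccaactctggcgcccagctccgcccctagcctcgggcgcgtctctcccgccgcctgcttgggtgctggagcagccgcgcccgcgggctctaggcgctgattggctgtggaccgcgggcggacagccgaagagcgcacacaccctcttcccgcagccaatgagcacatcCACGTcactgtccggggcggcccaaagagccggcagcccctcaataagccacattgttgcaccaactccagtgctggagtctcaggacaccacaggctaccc
Pygl, chr12:70227634-70227933, minus strand: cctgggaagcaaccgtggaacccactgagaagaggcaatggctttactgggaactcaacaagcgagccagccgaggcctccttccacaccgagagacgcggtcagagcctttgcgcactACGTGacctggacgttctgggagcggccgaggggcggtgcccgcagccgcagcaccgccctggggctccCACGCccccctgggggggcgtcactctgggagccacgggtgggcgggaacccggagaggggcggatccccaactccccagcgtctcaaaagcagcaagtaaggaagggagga
Pgm2, chr5:64092689-64092988, plus strand: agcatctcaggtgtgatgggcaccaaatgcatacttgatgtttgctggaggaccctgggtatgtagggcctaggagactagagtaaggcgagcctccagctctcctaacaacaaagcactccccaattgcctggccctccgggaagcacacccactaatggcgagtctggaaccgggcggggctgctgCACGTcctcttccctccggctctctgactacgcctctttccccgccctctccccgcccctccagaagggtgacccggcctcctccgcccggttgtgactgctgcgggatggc
The Slc16a3 window holds 2 ACGTG matches, at 27 and 14 bases before the start, and the Slc2a1 window holds 1 ACGTG match 36 bases before it and 1 GCGTG match 61 bases before it.

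Of the 35 members, 34 matched at least 1 promoter, in 51 windows, and Slc2a3 matched none. The letters ACGTG, on either strand, were found in at least 1 window of 21 of 31 measured members (67.7%), of 29.5% of the 9734 measured genes with a promoter and of 21.8% of all 27025 genes in the table. Counting GCGTG as well, the shares were 90.3%, 68.0% and 46.7%. By ratio, ACGTG was found for 8 of 11 members at least 1.2-fold higher (72.7%) and for 13 of the other 20 (65.0%). Pgm2, which was lower, holds 1 ACGTG match, and Tpi1, which was higher, holds neither motif in its window. ACGTG on one strand overlaps itself on the other in the palindrome CACGTG, which was counted on both. A motif of TEAD factors, the DNA-binding partners of TAZ, searched as CATTCC on both strands, was found for 5 of 31 measured members (16.1%) and 14.4% of measured genes. It was found for 3 of 11 members at least 1.2-fold higher (27.3%) and for 2 of the other 20.

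**Figure D3:**
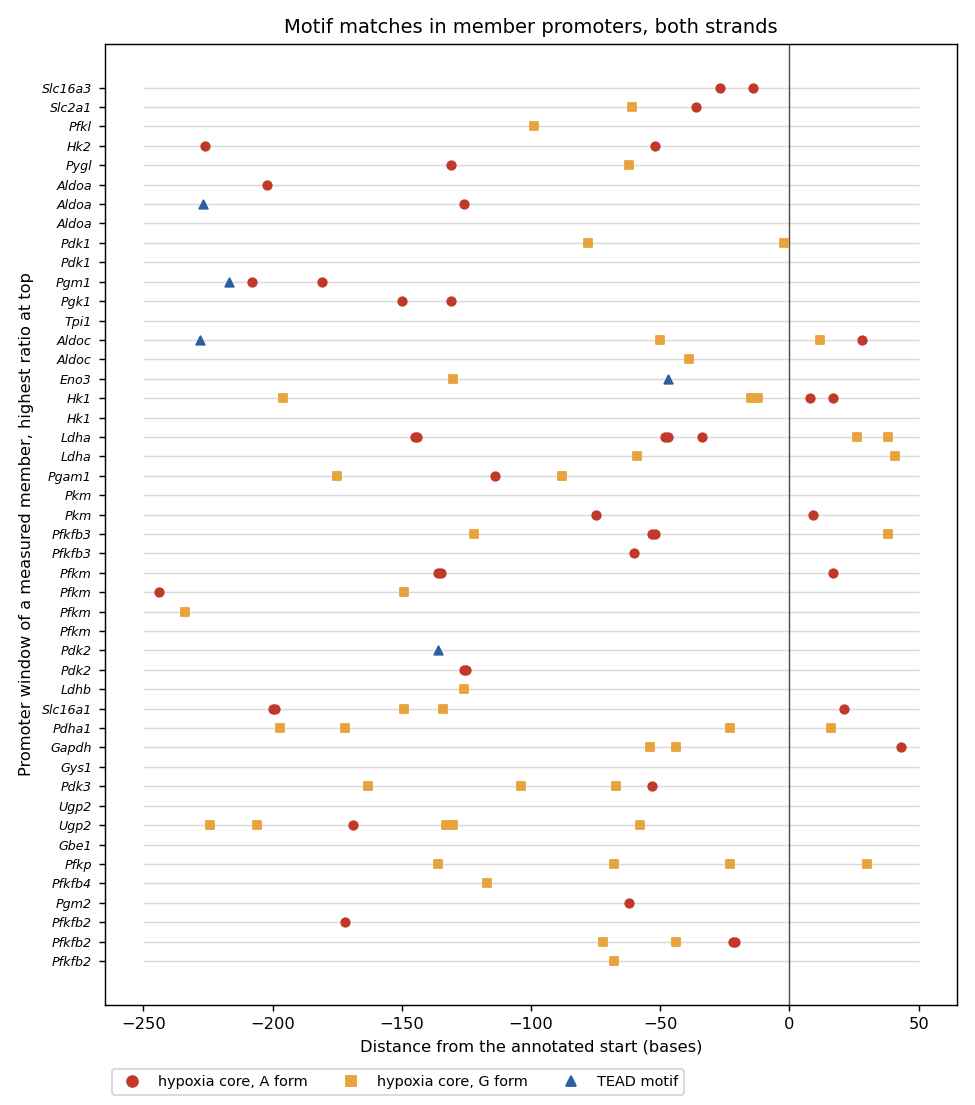
Each line is 1 promoter window of a measured member, ordered from the highest log2 ratio at the top to the lowest at the bottom, with the distance from the annotated start in bases on the horizontal axis. Points mark the first base of each match to the 2 forms of the hypoxia core and to the TEAD motif, and hypoxia core matches appear at the top and at the bottom of the order.

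Transporters of glucose and lactate held the highest ratios. Slc16a3, the lactate exporter MCT4, read 125.8 units in TAZ-deficient lung and 67.1 units in wild type lung, 1.87-fold higher, at its only probe set. Slc2a1, the basal glucose transporter GLUT1, read 629.5 in TAZ-deficient and 416.0 in wild type lung at its brightest probe set, 1.51-fold higher. Its other probe sets read 415.3 in TAZ-deficient and 285.2 in wild type lung, and 330.6 in TAZ-deficient and 242.8 in wild type lung. All 3 Slc2a1 probe sets were thus higher, by 1.36-fold to 1.51-fold, and the median of the 3 (1.46-fold) was under 1.5-fold. Slc2a3, the high-affinity glucose transporter GLUT3, read 117.8 in TAZ-deficient and 94.7 in wild type lung (1.24-fold higher), while its other probe sets above the floor on either array read 33.6 and 20.1 in TAZ-deficient lung, against 32.6 and 11.4 in wild type lung. Slc16a1, the bidirectional lactate transporter MCT1, differed least, with 654.8 units in TAZ-deficient and 621.0 in wild type lung. The log2 ratio of Slc16a3 was 0.83 above that of Slc16a1. Because Slc16a3 was below 106.3 units in wild type lung, its log2 ratio was 0.24 with the floor raised to that value, against 0.91 here.

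The upper part of glycolysis, which spends ATP to split glucose into triose phosphates, was higher at both control steps. Hk2, the insulin-regulated hexokinase, read 223.0 in TAZ-deficient and 159.6 in wild type lung (1.40-fold higher, 1 probe set). Hk1, the housekeeping hexokinase, read 179.2 in TAZ-deficient and 150.0 in wild type lung (1.19-fold higher), and 90.3 and 82.9 at its second probe set. Both hexokinase genes had positive ratios, with that of Hk2 0.23 above that of Hk1 on the log2 scale.

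Among the phosphofructokinase subunits, which catalyse the committed step, Pfkl had the highest ratio at the brightest probe set. Pfkl, the liver-type subunit, read 1015.5 in TAZ-deficient and 699.9 in wild type lung (1.45-fold higher), and 567.7 in TAZ-deficient and 416.4 in wild type lung at its second probe set (1.36-fold higher). Pfkm, the muscle-type subunit, read 176.9 in TAZ-deficient and 159.0 in wild type lung (1.11-fold higher). Pfkp, the platelet-type subunit, read 60.4 in TAZ-deficient and 67.1 in wild type lung (1.11-fold lower), but its dimmer probe set read 29.9 in TAZ-deficient and 23.1 in wild type lung (1.29-fold higher). The direction of Pfkp is therefore not settled by these arrays. The log2 ratio of Pfkl was 0.38 above that of Pfkm and 0.69 above that of Pfkp at the brightest probe sets. Against the dimmer Pfkp probe set (log2 ratio 0.37), the gap was smaller. The spread was between 0.12 and 0.24 per probe set, and a difference between 2 genes spreads more than that.

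Aldolase cleaves the hexose into triose phosphates. Aldoa, the main aldolase, read 1591.9 in TAZ-deficient and 1196.2 in wild type lung (1.33-fold higher). Its other 4 probe sets read 1179.4, 1089.9, 786.2 and 391.1 in TAZ-deficient lung, against 854.1, 724.3, 483.7 and 367.7 in wild type lung, 1.06-fold to 1.63-fold higher. Aldoa ratios thus varied more than the usual probe set spread, and all 5 sets carry the suffix of sets that can cross-hybridise. Aldoc, the brain-type aldolase, read 51.3 in TAZ-deficient and 42.6 in wild type lung, just past 1.2-fold higher.

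The bifunctional PFKFB enzymes, which set the level of an allosteric activator of phosphofructokinase, had 1 gene above 0 and 2 below, of which 1 reached 1.2-fold. Pfkfb2, the heart-type enzyme, read 19.2 in TAZ-deficient and 25.7 in wild type lung (1.34-fold lower), while its second probe set, at about the floor, was 1.02-fold lower. Pfkfb4, the testis-type enzyme, read 43.3 in TAZ-deficient and 50.1 in wild type lung (1.16-fold lower). Pfkfb3, the inducible enzyme, read 89.9 in TAZ-deficient and 79.8 in wild type lung (1.13-fold higher), and 40.0 and 39.6 at its second probe set. All of these signals were below 106.3 units, where probe sets disagree more, and the median log2 ratio of the 3 genes was -0.21.

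The lower part of glycolysis, from triose phosphates to pyruvate, yields ATP, and all 6 measured genes had ratios above 0. Tpi1, triose phosphate isomerase, read 2720.6 in TAZ-deficient and 2199.1 in wild type lung (1.24-fold higher), and 2601.4 and 1883.9 in TAZ-deficient lung, against 2074.1 and 1415.6 in wild type lung, at its other probe sets. Pgk1, phosphoglycerate kinase, read 2162.4 in TAZ-deficient and 1737.0 in wild type lung (1.24-fold higher), and 2256.0 and 818.1 in TAZ-deficient lung, against 1648.8 and 640.2 in wild type lung, at its other probe sets. All 3 probe sets of each of these genes were at least 1.2-fold higher. Pgam1, phosphoglycerate mutase, read 1767.7 in TAZ-deficient and 1518.1 in wild type lung (1.16-fold higher). Pkm, the muscle pyruvate kinase gene that also encodes the fetal isoform, read 1651.3 in TAZ-deficient and 1457.7 in wild type lung (1.13-fold higher). Pgam1 and Pkm thus stayed below 1.2-fold. Eno3, the muscle enolase, sat just under it, with 115.9 units in TAZ-deficient and 96.6 in wild type lung.

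Gapdh, glyceraldehyde phosphate dehydrogenase, had the ratio nearest to 1 among these genes. Its 3 probe sets are housekeeping control sets for the 5′ end, the middle and the 3′ end of the transcript, and they read 4192.5, 3951.6 and 3424.4 units in TAZ-deficient lung, against 4010.6, 3694.8 and 3151.4 in wild type lung. These are 1.05-fold, 1.07-fold and 1.09-fold higher, each below the probe set spread of 0.12 on the log2 scale. A probe set that the annotation gives to 5 genes, Gapdh among them, read 3268.4 in TAZ-deficient and 3382.0 in wild type lung. Those it gives to 2 genes, Gapdh among them, read 149.7 and 46.5 in TAZ-deficient lung, against 133.4 and 41.5 in wild type lung. After loess, which subtracts the trend of the ratio with signal, the log2 ratio of Gapdh was -0.0018, so that its direction is not settled.

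Lactate dehydrogenase interconverts pyruvate and lactate. Ldha, the subunit that favours lactate formation, read 3021.5 in TAZ-deficient and 2547.9 in wild type lung (1.19-fold higher, 1 probe set). Ldhb, the heart-type subunit, read 527.5 in TAZ-deficient and 489.2 in wild type lung (1.08-fold higher), and its other 3 probe sets read 471.9, 427.2 and 366.2 in TAZ-deficient lung, against 398.2, 367.6 and 312.9 in wild type lung. All 5 probe sets of the 2 subunits were below 1.2-fold, and the highest Ldhb ratio was close to that of Ldha (1.19-fold each).

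**Figure D4:**
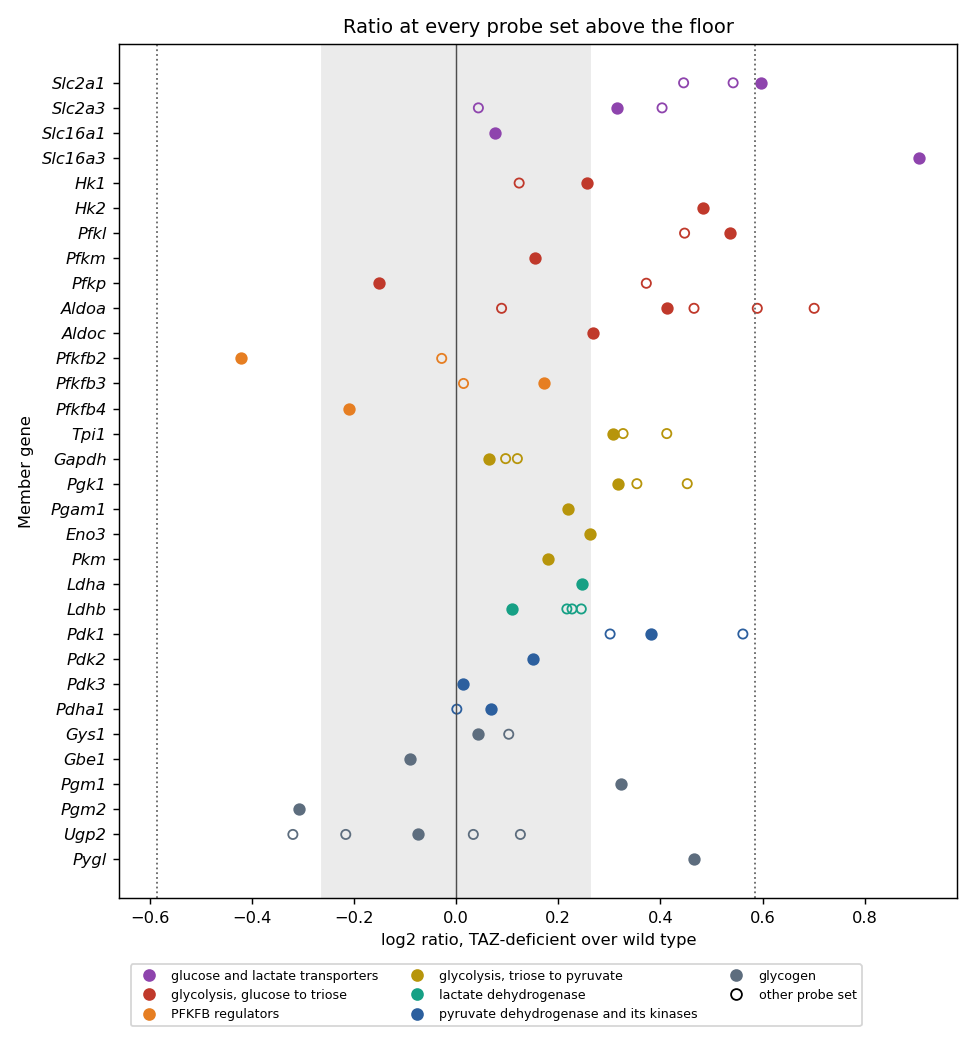
Log2 ratios (horizontal axis, TAZ-deficient over wild type) are shown for every probe set above the floor of each member, filled for the brightest probe set and open for the others, with colour for the role, grey shading for less than 1.2-fold and dotted lines at 1.5-fold. Slc2a1, Pfkl, Tpi1, Pgk1 and Pdk1 lie beyond 1.2-fold at every probe set, whereas the probe sets of Pfkp and Ugp2 fall on both sides of 0.

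At the entry of pyruvate into the mitochondrion, 1 of 3 kinases was at least 1.2-fold higher. Pdk1, a kinase that inactivates pyruvate dehydrogenase, read 486.1 in TAZ-deficient and 373.4 in wild type lung (1.30-fold higher), and its other probe sets above the floor read 313.5 and 175.6 in TAZ-deficient lung, against 254.4 and 119.0 in wild type lung. Pdk2 read 76.9 in TAZ-deficient and 69.3 in wild type lung (1.11-fold higher). Pdk3 read 357.0 in TAZ-deficient and 353.7 in wild type lung (1.01-fold higher). The ratio of Pdk1 was 0.23 and 0.37 above those of Pdk2 and Pdk3 on the log2 scale, the first of these within the spread of 0.24 for dim probe sets. Pdha1, the catalytic subunit that these kinases phosphorylate, read 804.1 in TAZ-deficient and 767.4 in wild type lung at its brighter probe set, and 512.6 and 512.1 at the other.

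Glycogen genes went both ways, with 3 of 6 ratios above 0 and a median of -0.02. Pygl, the liver-type glycogen phosphorylase that releases glucose units from glycogen, read 574.7 in TAZ-deficient and 416.1 in wild type lung (1.38-fold higher, 1 probe set). Pgm1, which interconverts the glucose phosphates between glycogen and glycolysis, read 216.2 in TAZ-deficient and 172.9 in wild type lung (1.25-fold higher). Pgm2, whose human counterpart acts mainly on pentose phosphates, read 260.3 in TAZ-deficient and 322.2 in wild type lung (1.24-fold lower). The RefSeq annotation lists Pgm1 and Pgm2 as former names of each other, and the values are given under the current names. Their log2 ratios lay 0.63 apart.

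The enzymes that build glycogen differed less. Gys1, the glycogen synthase outside the liver, read 83.7 in TAZ-deficient and 81.2 in wild type lung, and Gbe1, the branching enzyme, read 66.0 in TAZ-deficient and 70.3 in wild type lung. Ugp2, which makes the UDP-glucose that glycogen synthase uses, read 924.5 in TAZ-deficient and 973.8 in wild type lung at its brightest probe set, but its other 4 probe sets ran from 1.25-fold lower to 1.09-fold higher. No direction can be given for Ugp2.

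Other genes of glucose metabolism, in lists chosen with earlier results of these data known, stayed near the distribution of all genes. Over 10 further lists, 94 genes were measured, of which 9.57% were at least 1.2-fold higher and 5.32% at least 1.2-fold lower, against 8.02% and 10.6% of all measured genes. Among other hexose and lactate transporters (9 measured, median log2 ratio 0.01), Slc2a12 was 1.46-fold higher at a dim 25.3 units in TAZ-deficient and 17.3 in wild type lung, and Slc2a4, the insulin-responsive GLUT4, read 54.0 in TAZ-deficient and 70.8 in wild type lung (1.31-fold lower). Of 8 other glycolytic isoenzymes (median -0.06), Tigar, a phosphatase that restrains glycolysis, read 31.7 in TAZ-deficient and 24.9 in wild type lung, and Pklr, the liver pyruvate kinase, was at least 1.21-fold lower (9.8 and 18.4 in the same order). Of 5 gluconeogenic genes (median 0.11), Fbp1, fructose bisphosphatase, read 26.1 in TAZ-deficient and 20.1 in wild type lung (1.30-fold higher).

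The remaining lists of the pathway had medians between -0.04 and 0.04. None of 9 pyruvate dehydrogenase complex and pyruvate carrier genes was 1.2-fold different, Pdhb reading 813.3 in TAZ-deficient and 833.9 in wild type lung and the carrier Mpc1 822.2 and 911.1. Nor was any of 14 tricarboxylic acid cycle genes (Sdhb 1432.1 in TAZ-deficient and 1444.0 in wild type lung, Sdhc 1142.5 and 1128.9), 9 pentose phosphate genes (Tkt 3148.0 and 2901.2, Pgls 929.2 and 956.1) or 9 shuttle genes (Mdh1 1818.4 and 1708.8, Mdh2 1956.7 and 1800.3). These branches therefore held no gene at 1.2-fold. In the hexosamine list (7 measured), Pgm3 was 1.29-fold higher (99.4 in TAZ-deficient and 76.8 in wild type lung) and Gfpt2 1.30-fold lower (43.4 and 56.4), and of 5 glucose-responsive regulators Arrdc4 was 1.29-fold higher (67.3 and 52.2), whereas its second probe set was lower (29.8 and 35.2).

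Of 19 other glycogen enzymes and regulators, 4 were at least 1.2-fold higher and 2 lower, with a median of -0.03. The glycogen-targeting phosphatase subunits Ppp1r3e (34.2 in TAZ-deficient and 18.6 in wild type lung, 1.84-fold higher) and Ppp1r3f (29.5 and 17.8, 1.66-fold higher) were dim. Another such subunit, Ppp1r3d, also dim and named after its value was seen, was 1.36-fold lower (35.2 in TAZ-deficient and 47.7 in wild type lung). Pgm5, a muscle-adhesion paralogue without known mutase activity, read 51.5 in TAZ-deficient and 70.2 in wild type lung (1.36-fold lower). Pygb, the brain-type phosphorylase and paralogue of Pygl, was named after its value was seen and read 468.3 in TAZ-deficient and 375.6 in wild type lung (1.25-fold higher).

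**Figure D5:**
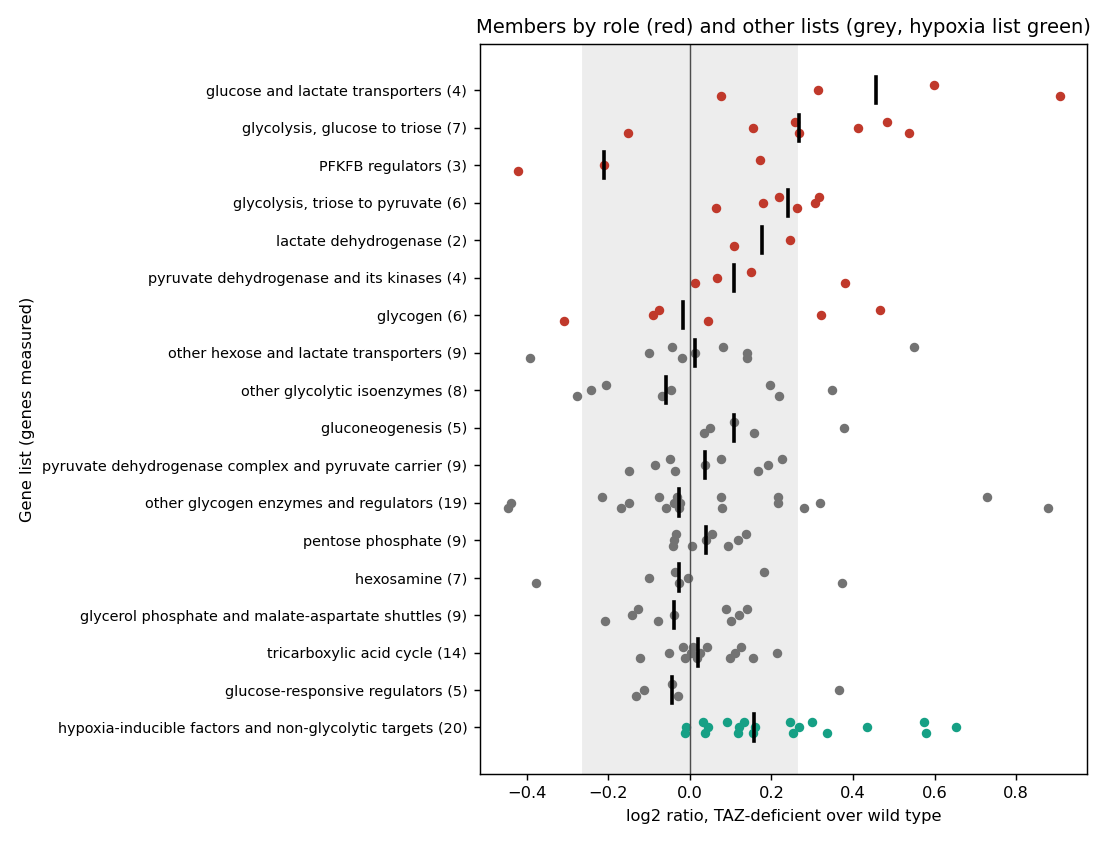
Each point is the log2 ratio (TAZ-deficient over wild type) of 1 measured gene, with members by role in red, 10 other lists of glucose metabolism in grey and the hypoxia list in green; black bars are medians and shading marks less than 1.2-fold. The transporters and both stretches of glycolysis have medians between 0.24 and 0.46, whereas the grey lists have medians between -0.06 and 0.11.

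Hypoxia-inducible factors and their targets outside glycolysis also leaned upwards, with 18 of 20 ratios above 0, 7 at least 1.2-fold higher and a median log2 ratio of 0.16, against 46.7%, 8.02% and -0.01 of all measured genes. Arnt, the dimerisation partner of these factors, counted as above 0 by its brightest probe set (258.6 in TAZ-deficient and 235.8 in wild type lung), but another probe set read 103.3 in TAZ-deficient and 242.8 in wild type lung. Hif1a, Epas1, Vhl, Vegfa and Ndrg1 also counted as above 0 by the brightest probe set but had a dimmer one below 0. The lowest log2 ratios were -0.18, -0.14, -0.13, -0.22 and -0.21 in that order. Ankrd37 (150.6 units in TAZ-deficient and 95.8 in wild type lung), P4ha1 (208.8 and 139.9) and Bnip3 (655.0 and 440.2) were 1.49-fold to 1.57-fold higher, while Hif1a itself, an example chosen after its value was seen, read 1355.0 in TAZ-deficient and 1320.0 in wild type lung.

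Markers of other cells differed between the pools, and their part in the glycolytic values was not tested. The summed signal of 11 erythroid genes was 4383.6 in TAZ-deficient and 2307.6 in wild type lung, carried by the embryonic globins Hbb-y, Hbb-bh1 and Hba-x (3.05-fold to 3.60-fold higher), with 4 of 8 measured genes above 0. Outside the globins, chosen after their values were seen, Alas2 read 609.2 in TAZ-deficient and 662.4 in wild type lung and Slc4a1 148.2 and 195.2. Muscle markers were lower, with 0 of 9 smooth muscle genes, 0 of 7 heart genes and 0 of 2 skeletal muscle genes above 0. Their summed signals were 4737.9, 629.9 and 53.9 in TAZ-deficient lung, against 5154.0, 829.1 and 81.1 in wild type lung. Examples of smooth muscle are Synpo2 (1.55-fold lower) and Cnn1 (at least 1.5-fold lower). Of heart, Myl7 (46.2 in TAZ-deficient and 83.6 in wild type lung) was 1.81-fold lower. Myh7 (15.4 and 24.9) and Tnnt2 (20.1 and 30.6), both near the floor, were 1.62-fold and 1.52-fold lower. Myl4 counted as lower by its brightest probe set, but a dimmer one was higher (19.3 and 8.3). Ckm of skeletal muscle was at least 1.53-fold lower at its brightest probe set. The other Ckm probe set above the floor had the opposite sign, with 19.6 in TAZ-deficient and 10.1 in wild type lung. Sums for lung epithelium were 13012.4 in TAZ-deficient and 12913.5 in wild type lung, with 8 of 12 above 0 (Sftpc 4121.5 and 4142.5, Etv5 1620.5 and 1420.4). For mesenchyme they were 12013.4 and 11843.1, with 6 of 11 above 0 (Col3a1 3524.0 and 3422.8, Col1a2 1868.5 and 1829.7), and for endothelium 6243.0 and 6387.5, with 3 of 10 above 0 (Aplnr 2944.2 and 2905.5, Esam 655.4 and 685.9). Leukocyte sums were 1336.0 and 1407.5, with 3 of 10 above 0. S100a8 was 1.54-fold higher, whereas C1qa, C1qb and C1qc, chosen after their values were seen, were 1.29-fold, 1.37-fold and 1.31-fold lower. Mesothelium sums were 843.3 in TAZ-deficient and 832.3 in wild type lung, with 3 of 5 above 0 (Krt19 441.9 and 490.8, Upk3b 280.3 and 239.9). Liver markers summed to 33.6 and 38.5, only Alb being measured (10.7 and 15.3), and no marker value was exactly 0.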

How the data were processed

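Whole lung RNA of 2 groups was measured on a one-colour Affymetrix mouse array, 1 array per pool. The authors deposited a linear intensity per probe set, whose mean without the lowest and highest 2% is 100.0 on each array. Per the submitters' processing notes, the tools were GCOS and MAS5 (versions not given). Of 45101 probe sets, 34958 name 1 gene, 932 name several and 9211 are not listed by the platform annotation. For 34754 of those that name 1 gene, the symbol was the one that RefSeq GRCm38.p6 gives for the Entrez identifier, whether or not it differed. Control probe sets were kept where the annotation gives them 1 gene, which is how Gapdh is represented.

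Values were set to a floor of 15.2, and a gene took its probe set with the highest mean log2 signal. With 1 array per group there is no test, and the number of arrays limits the precision. Sizes of 1.2-fold and 1.5-fold were counted beside all measured genes. Measured members are named with their values, those at least 1.2-fold different with all probe sets above the floor. From each other pathway list up to 3 genes at least 1.2-fold different are named, and from each marker list up to 3 at least 1.5-fold different, by the largest ratio, otherwise the 2 brightest. The members, lists, thresholds and alternatives were chosen with earlier results of these data known. The calculation of ratios was checked on simulated signals with known folds. These held no noise and changed bright genes only, so the check says nothing about the reliability of small ratios. Python 3.11.15, pandas 2.3.3 and statsmodels 0.14.6 (loess span 0.3) were used. Alternatives covered the floor, the scaling and the choice of probe set.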

Additional observations from a re-analysis of the deposited data

How the results depend on the processing

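The median log2 ratio of the members was above 0 under all 10 alternatives, against 0.20 here. It lay between 0.15 (without suffixed probe sets, 23 members) and 0.23 (floor at the 75th percentile, 24 members). Suffixed probe sets are those with names ending in _a_at, _s_at or _x_at, so that setting does not single out cross-hybridising sets. The count at least 1.2-fold higher was between 8 and 15, against 12. The count at least 1.5-fold higher was 1 instead of 2 with the 75th percentile floor and with a pseudocount of 16. It was also 1 without suffixed probe sets (Slc2a1 at 0.45) and with probe sets of a gene summarised by their median. The count at least 1.2-fold lower was 1 instead of 2 under these settings, except the one without suffixed probe sets. Fewer members were left with the higher floor and without suffixed probe sets. Otherwise the cause was not tested. Over all genes, those at least 1.2-fold higher numbered 966, but 2272 with a 25th percentile floor and 227 with a 75th percentile floor, with 1274, 2989 and 298 lower. Of 302 values of single members under the alternatives, 297 kept their sign and moved by less than the probe set spread. Another 3 moved further, Slc16a3 with the 75th percentile floor (0.24) and Slc2a1 and Ugp2 without suffixed probe sets (0.45 and -0.22). The other 2 changed sign, Gapdh after loess (-0.0018) and Pfkp with the median over probe sets (0.11). Much of this agreement was fixed in advance. All measured members exceeded the floor on both arrays, so the 25th percentile floor and requiring both arrays could not change their values. Only Gapdh depends on control probe sets. Median centring shifted every member equally, and the median over probe sets could not change the 16 members with 1 probe set above the floor. Leaving out control probe sets, which removes Gapdh, was added after seeing the data. No paired analysis was possible because each group is 1 pool on 1 array. No replicate can be left out, and low signal over background limits the PFKFB genes and Aldoc.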
